A study of Mus musculus with 8 samples.

Results

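The genes that make, bind and break down retinoic acid (RA) were represented by 9 mouse genes. They were the RA hydroxylases Cyp26a1, Cyp26b1 and Cyp26c1, the retinaldehyde dehydrogenases Aldh1a1, Aldh1a2 and Aldh1a3, the cellular RA binding proteins Crabp1 and Crabp2, and Stra6, the membrane receptor for retinol-binding protein. The genes were taken by name from GENCODE M21, in which they are 9 of 21938 protein-coding genes on chromosomes 1 to 19, X and Y. For each gene, the peaks of 8 ChIP-seq lists were collected from 20 kb upstream of the gene to 5 kb past its end. These windows held 70 distinct peaks. The windows of Cyp26a1 and Cyp26c1 overlap, because the genes lie next to each other on chromosome 19, and 14 peaks counted for both.

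Retinol enters cells through Stra6 and related routes, is oxidised to retinaldehyde by retinol dehydrogenases, and is then oxidised to RA by the Aldh1a enzymes. RA is the ligand of the retinoic acid receptors, which bind DNA as pairs with RXR on repeats of a short word. Crabp1 and Crabp2 carry RA in the cell, and the Cyp26 enzymes hydroxylate it and so end its action. Cyp26a1 is a textbook target of RA in embryonic stem cells, where the product of the gene removes the signal that turns it on.

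All libraries came from E14Tg2a, a line of mouse embryonic stem cells used at passages 37 to 40. The cells of 5 plates were pooled before immunoprecipitation. Pluripotent cells (ESCs) were grown with LIF, the leukemia inhibitory factor that holds them in that state. Neuronal cells (NCs) were monolayers without LIF that received 1 µM RA for 48 h. FGFR1 (a fibroblast growth factor receptor also present in the nucleus), RXR and Nur77 (an orphan nuclear receptor that can pair with RXR) were each precipitated from ESCs and from NCs, and the histone variant H3.3 from NCs. FGFR1 in NCs had 2 libraries, here replicates 1 and 2, the latter titled as a second experiment, and nothing says whether they came from separate cultures. Each other group had 1 library, so no test between ESCs and NCs or between factors was possible. The commands that made the lists name no control library, and peak lists cannot show whether the cells carried the markers of their type.

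The lists held 10634 to 46137 peaks. Each peak carries a fold, which is the fragment pileup at its summit over the local background with 1 added to both, and a -log10 p from a Poisson model, with peaks called from a p of 1e-05. Both values together give the fragments at the summit and the background. The background density, taken as depth, ran from 1.27 fragments per kb for H3.3 to 7.09 for RXR in ESCs. A peak needed at least 4 to 8 summit fragments, depending on the library. Replicate 2 of FGFR1 in NCs stood apart, with a fragment length of 153 bp against 72 bp in replicate 1. Of its peaks, 1.26% held a tract of alternating purines and pyrimidines of at least 20 bp, against 21.1% to 51.8% in the other lists.

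The stretch just upstream of Cyp26a1 is shown because only this promoter, of the 9 searched, held a repeat of the receptor core word. The search took 1 promoter of 2001 bp per gene, so more distant starts of the same gene were not covered. The core word was searched in both strands as AGGTCA or GGGTCA or AGTTCA or GGTTCA, in direct repeats spaced by 1, 2 or 5 bases. All sequences are from the RefSeq copy of GRCm38, the assembly also called mm10, and distances are from the first base of the longest protein-coding transcript. The first line gives 200 bases on the plus strand, chr19:37697598-37697797, with the repeat in capitals. The second line gives the repeat itself on the minus strand, chr19:37697776-37697792, with both core words in capitals.
Cyp26a1 upstream: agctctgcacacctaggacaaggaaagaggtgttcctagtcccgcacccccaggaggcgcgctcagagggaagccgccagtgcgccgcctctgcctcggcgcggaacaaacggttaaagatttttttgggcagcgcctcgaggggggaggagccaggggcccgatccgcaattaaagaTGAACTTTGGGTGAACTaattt
Cyp26a1 repeat: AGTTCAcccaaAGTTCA

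The repeat lay from -22 to -6 bp of the Cyp26a1 start, with a spacing of 5 bases, the form on which receptor pairs containing RXR are best known. A repeat with this spacing occurred within 1000 bp of the gene start in 0.588% of all 21938 protein-coding genes. Spacings of 1 and 2 bases occurred in 1.21% and 1.31% and were found in none of the 9 member promoters searched. The extended site read by Nur77 as a single molecule, AAA followed by GGTCA, occurred in 8.86% of all promoters and in that of 1 member, Crabp1, at -951 to -944 bp and outside any peak. Within the peaks themselves, the repeat of Cyp26a1 was the only match to any of these words. The only library whose peak covered it was replicate 2 of FGFR1 in NCs. That peak was 453 bp wide, against 88 to 129 bp for the other peaks at this promoter, and its summit lay 98 bp past the start.

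The study tested the Cyp26a1 promoter by ChIP-PCR, and its primer pair places these peaks. The forward primer lies at chr19:37697698-37697716 on the plus strand and the reverse primer at chr19:37697810-37697828 on the minus strand, so the product runs from -100 to 30 bp and contains the repeat.
Cyp26a1 forward primer: gcggaacaaacggttaaag
Cyp26a1 reverse primer: caggttactgcccacgtta
The peak of FGFR1 replicate 2 covered all 131 bp of the product. The peak of replicate 1 began 22 bp past its end, that of H3.3 49 bp past it and that of RXR in ESCs 72 bp past it.

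A promoter peak was one that shared at least 20 bp with the 1000 bp to either side of any transcript start of the gene. Cyp26a1, Cyp26c1, Aldh1a2, Aldh1a3, Crabp1 and Cyp26b1 had such a peak in at least 1 library, which is 6 of 9 members against 65.5% of all protein-coding genes. Aldh1a1, Crabp2 and Stra6 had none in any library. As deposited, FGFR1 peaks at member promoters were found in NCs and not in ESCs, while RXR peaks were found mostly in ESCs. All protein-coding genes differed in the same direction. Their share was 17.0% in ESCs against 50.7% and 49.6% in NCs for FGFR1, and 42.5% against 23.3% for RXR. The RXR libraries also differed in depth, at 7.09 fragments per kb in ESCs and 1.87 in NCs. At equal depth the RXR difference ran the other way, as given below.

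**Figure D1:**
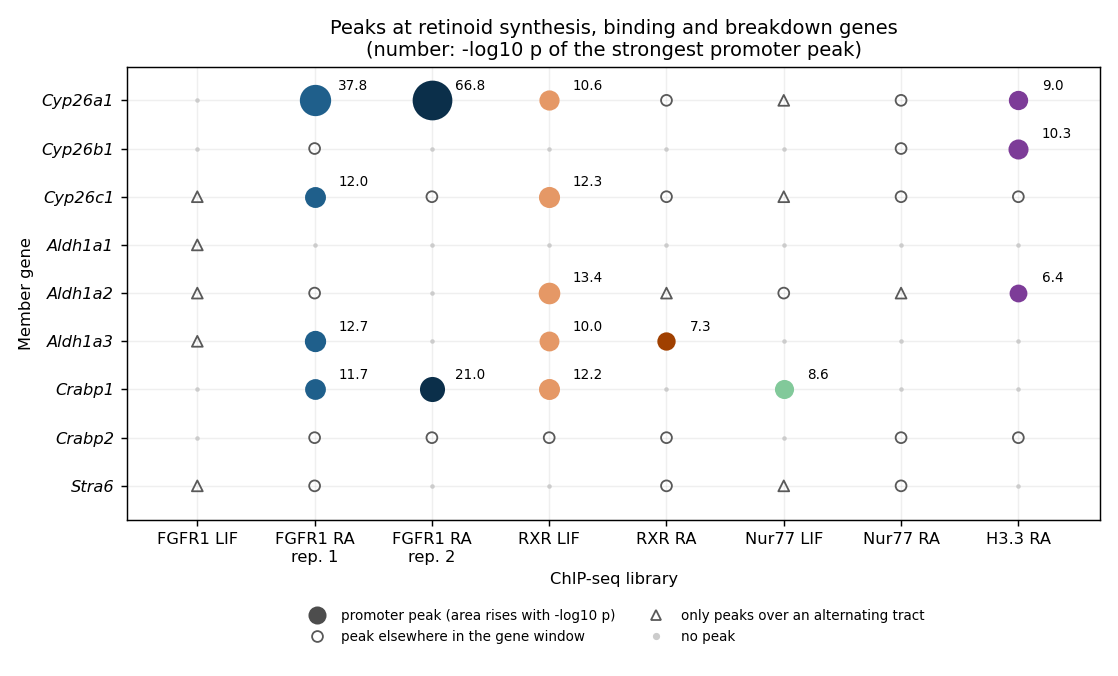
Each row is a member gene and each column a library. Filled circles mark a promoter peak, with the -log10 p of the strongest one printed beside it, open circles a peak elsewhere in the gene window, and triangles windows whose peaks all lie over an alternating tract. The Cyp26a1 promoter in the FGFR1 libraries from NCs carries the 2 highest values, 37.8 and 66.8, and the FGFR1 library from LIF has triangles only.

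In ESCs, FGFR1 had a promoter peak at 0 of 9 members, where the share over all protein-coding genes was 17.0%. In NCs, replicate 1 had promoter peaks at 4 members, Cyp26a1, Cyp26c1, Aldh1a3 and Crabp1, against 50.7% of all genes, and replicate 2 at 2 members, Cyp26a1 and Crabp1, against 49.6%. The mean over both libraries was 3 ± 1.41 members (SD, n = 2). Cyp26a1 and Crabp1 were thus found in both replicates, as were 39.5% of all genes, and in both replicates but not in ESCs, as were 24.8%. The members' share of 22.2% was near or below these backgrounds. On replicate 1 alone, 4 members would be counted in each case.

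RXR in ESCs had promoter peaks at Cyp26a1, Cyp26c1, Aldh1a2, Aldh1a3 and Crabp1, 5 of 9 against 42.5% of all genes. RXR in NCs had one at Aldh1a3, 1 of 9 against 23.3%. A peak in ESCs and none in NCs was seen at 4 members, 44.4% of the list against 23.1% of all genes. Depth moved with this difference, at 7.09 fragments per kb in ESCs and 1.87 in NCs. Scaled to the depth of the NC library, 0 of the 7 RXR promoter peaks in ESCs passed the peak limit, with -log10 p values from 3.02 to 4.57. Over all genes, 1617 of the 9323 with an RXR promoter peak in ESCs kept one at that depth, which is 17.3%. RXR in NCs had one at 5116 genes. At equal depth the counts were thus lower in ESCs, for all genes and for members, at 0 members against 1. A loss of RXR from these promoters therefore cannot be told apart from the lower depth in NCs.

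The same scaling left the FGFR1 peaks in place. All 7 FGFR1 promoter peaks of members in NCs still passed the limit at the depth of the FGFR1 library from ESCs. Among all genes bound in NCs, 98.8% kept a promoter peak at that depth in replicate 1 and 93.4% in replicate 2. At the depth of the FGFR1 library from ESCs, FGFR1 had promoter peaks at 0 members in ESCs against 4 and 2 in NCs. The scaling covers depth alone. How well the immunoprecipitation worked in each library was not tested. The count of replicate 1 depended on how the lists were matched. With depth lowered to that of H3.3 it was 3 members. With each FGFR1 list cut to its strongest 11378 peaks, the length of the list from ESCs, it was 1 member, since Cyp26c1, Aldh1a3 and Crabp1 were lost, and Cyp26a1 alone was then found in both replicates.

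**Figure D2:**
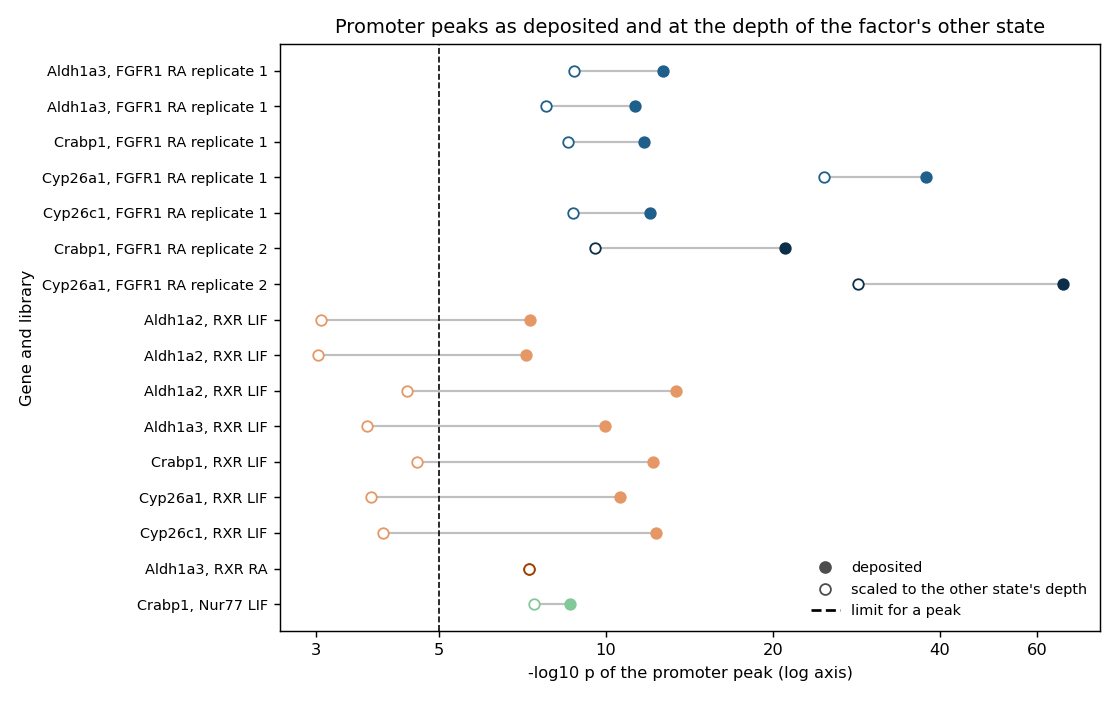
Each row is a promoter peak of a member for a factor that was measured in both states, with its -log10 p on a log axis. Filled circles are the deposited values, open circles the values after scaling to the depth of the factor's other state, and the dashed line the peak limit of 5. All 7 RXR peaks from ESCs cross the line, and none of the 7 FGFR1 peaks from NCs does.

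Nur77 had a promoter peak at 1 member in ESCs, Crabp1, against 25.5% of all genes, and at 0 members in NCs, against 25.8%. H3.3 in NCs had promoter peaks at Cyp26a1, Cyp26b1 and Aldh1a2, 3 of 9 against 15.5%. Of all protein-coding genes, 10.0% had a promoter peak in both FGFR1 replicates from NCs and in RXR from ESCs, and none in FGFR1 from ESCs or RXR from NCs. Cyp26a1 and Crabp1 were the 2 members with this pattern, in which the values for RXR carry the limit of depth given above.

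**Figure D3:**
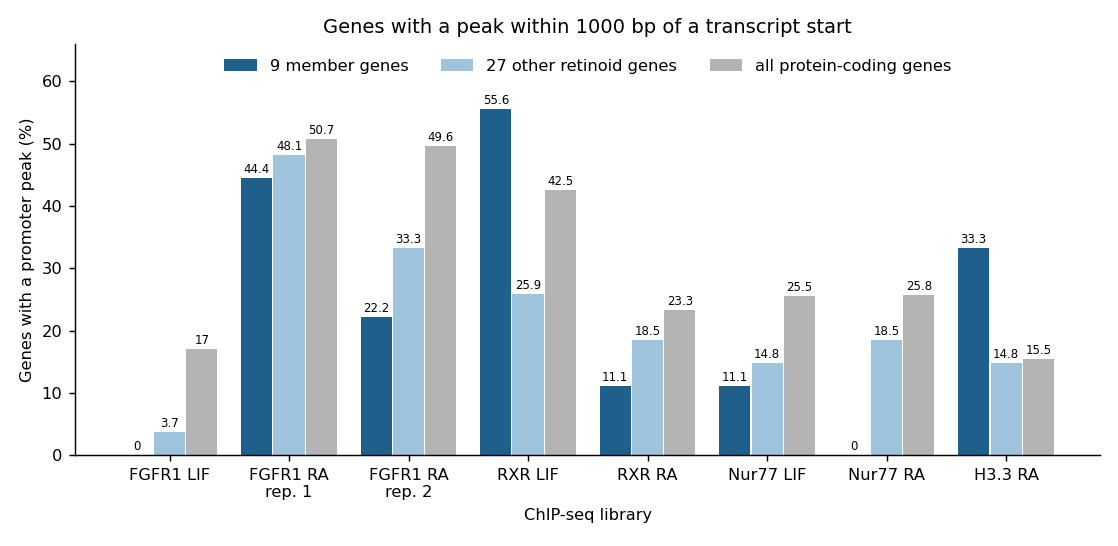
Bars give the percent of genes with a promoter peak in each library, for the 9 members, 27 other retinoid genes and all protein-coding genes. The member bars lie above the grey bars for RXR in LIF (55.6% against 42.5%) and for H3.3 (33.3% against 15.5%), and below them in the other 6 libraries.

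Cyp26a1, the main RA hydroxylase of the early embryo, had the strongest FGFR1 promoter peaks of the 9 genes in both libraries from NCs. Its RXR and H3.3 peaks were weaker than those of other members, as for RXR in ESCs at Aldh1a2, Cyp26c1 and Crabp1 and for H3.3 at Cyp26b1. The gene lies at chr19:37697798-37701536 on the plus strand. Replicate 1 of FGFR1 in NCs had a peak at chr19:37697850-37697978, with a fold of 15.1, a -log10 p of 37.8 and 36 summit fragments over a background of 1.45. Replicate 2 had a peak at chr19:37697656-37698108, with a fold of 10.8, a -log10 p of 66.8 and 94 fragments over 7.76. The summits were 112 and 98 bp past the start, on and just before the start codon at 112 bp. Among genes with an FGFR1 promoter peak, Cyp26a1 ranked 139 of 11133 in replicate 1 and 629 of 10887 in replicate 2, so that 98.8% and 94.2% of bound promoters were weaker. The mean -log10 p was 52.3 ± 20.5 (SD, n = 2), a value that also rises with depth.

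FGFR1 in ESCs had no peak at all in the Cyp26a1 window, and its nearest summit lay at -29599 bp, over an alternating tract. At the depth of that library, the peaks of NCs would have held 23 and 38 fragments and a -log10 p of 24.8 and 28.4, far past the limit of 5. RXR in ESCs had a peak at chr19:37697900-37697987 with a fold of 5.88, a -log10 p of 10.6 and its summit at 174 bp. H3.3 had a peak at chr19:37697877-37697996 with a fold of 6.24, a -log10 p of 8.99 and its summit at 161 bp. RXR in NCs and Nur77 in either state had no peak at this promoter.

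All 4 promoter peaks of Cyp26a1 shared 79 bp, from 102 to 180 bp past the start. The part of it from the start codon on is shown because it is the DNA common to FGFR1, RXR and H3.3 at this gene. It lies at chr19:37697910-37697978, plus strand, in the coding part of the first exon, with CpG dinucleotides in capitals.
Cyp26a1 shared coding stretch: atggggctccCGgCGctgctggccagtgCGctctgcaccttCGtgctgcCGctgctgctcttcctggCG

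The 69 bases hold 6 CpG and are 71.0% G or C. CpG in the 2001 bp promoter of Cyp26a1 was 0.628 of the number that its base composition gives, higher than in 70.0% of all protein-coding promoters.

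Cyp26c1, a hydroxylase of the hindbrain and head, lies just upstream at chr19:37685581-37693398 on the plus strand. Its promoter count rested on peaks at the far edge of the promoter, in a coding exon. RXR in ESCs had its summit 956 bp past the start with a -log10 p of 12.3, and FGFR1 replicate 1 in NCs at 988 bp with 12.0. Neither counted when promoters were narrowed to 500 bp. FGFR1 replicate 2 had its nearest summit 1619 bp past the start, with a -log10 p of 11.1, and RXR in ESCs a weak peak beside it with 6.51.

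A site in a later coding exon of Cyp26c1 was shared by both FGFR1 replicates. It spanned chr19:37690723-37691103, between the starts of Cyp26c1 and Cyp26a1. Replicate 1 had a -log10 p of 16.7 and replicate 2 of 26.0, with summits at -6823 and -6809 bp from the Cyp26a1 start. Nur77 in NCs had 10.1 there and H3.3 12.3, with all summits within 64 bp. The 4 libraries with a peak at this site were all from NCs, and no library from ESCs had one.

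RXR in NCs had its only peak near Cyp26a1 in a coding exon of Cyp26c1, at -4640 bp from the Cyp26a1 start, with a -log10 p of 9.36. Nur77 in ESCs had one in an intron of Cyp26c1 at -8695 bp with 12.7, over an alternating tract of 27 bp. In 7 of the 8 libraries the strongest peak of the Cyp26c1 window lay over a tract of 142 bp in an intron of a neighbouring gene, at about -17380 bp from the Cyp26c1 start. That site had a peak in every library except FGFR1 replicate 2, with -log10 p values from 19.3 in FGFR1 from ESCs to 57.2 in Nur77 from NCs.

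**Figure D4:**
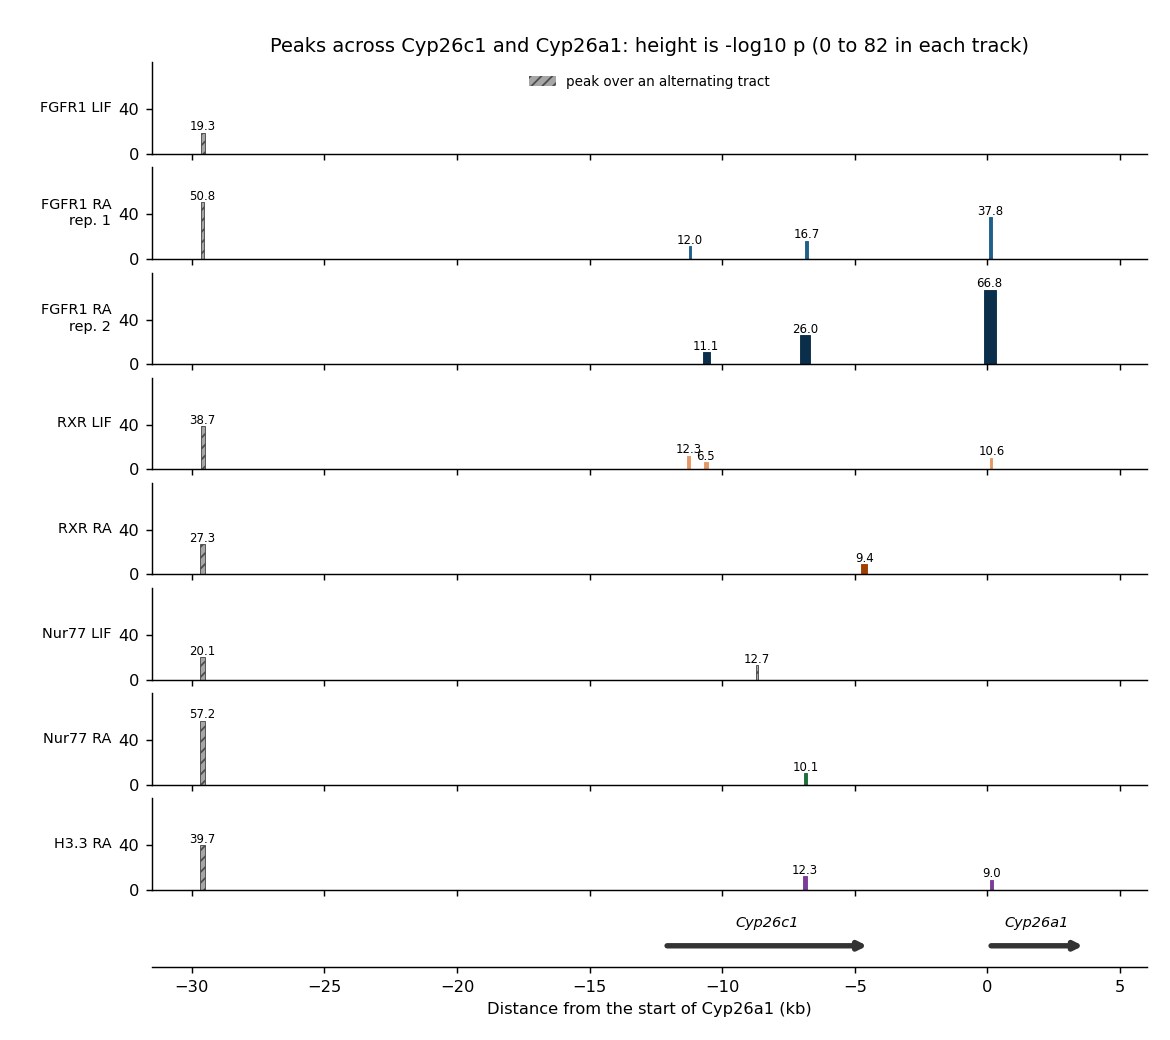
Peaks of the 8 libraries are drawn by distance from the Cyp26a1 start in kb, with the height giving -log10 p from 0 to 82 in each track and the arrows the 2 genes with their direction. The Cyp26a1 promoter is marked by both FGFR1 libraries from NCs, RXR from LIF and H3.3. The hatched peaks at the left edge, over a tract, are present in 7 tracks and absent from FGFR1 replicate 2.

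Cyp26b1, the hydroxylase best known from limb and gonad, lies at chr6:84571414-84593908 on the minus strand. It had no peak within 1000 bp of its first start in any library. H3.3 had a peak with a -log10 p of 10.3 and 11 fragments at 68 bp past an internal start, in a coding exon, which made it the only promoter peak of the gene. FGFR1 replicate 1 in NCs had 3 peaks inside the gene, with -log10 p values of 7.32, 7.44 and 11.5. None of them was found in replicate 2, and that of 7.44 lay over a tract of 26 bp. Nur77 in NCs had 1 peak in a coding exon with 8.71, and H3.3 a peak past the gene end with 13.8, over a tract of 67 bp. FGFR1 and Nur77 in ESCs and RXR in both states had no peak in the window.

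Of the genes that make RA, Aldh1a2 is the main synthetic enzyme of the early embryo and lies at chr9:71215789-71296243 on the plus strand. Its promoter was the most CpG-rich of the 9, with 0.822 of the number that its composition gives, higher than in 93.6% of all promoters. RXR in ESCs had 3 separate peaks there, with summits at -452, -171 and 69 bp and -log10 p values of 7.31, 7.18 and 13.4. The 2 upstream peaks are shown, on the plus strand with CpG in capitals, because they are the only RXR promoter peaks of the members that lie wholly upstream of a first start.
Aldh1a2 RXR peak at chr9:71215288-71215367: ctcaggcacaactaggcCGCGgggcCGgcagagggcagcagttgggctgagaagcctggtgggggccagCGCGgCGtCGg
Aldh1a2 RXR peak at chr9:71215615-71215694: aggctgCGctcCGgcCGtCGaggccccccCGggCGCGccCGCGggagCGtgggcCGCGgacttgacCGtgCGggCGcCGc

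The second of these holds 16 CpG in 80 bp. H3.3 in NCs had a weak peak 795 bp past the start, in the first intron, with 5 fragments and a -log10 p of 6.41. FGFR1 and Nur77 had no peak at the Aldh1a2 promoter in either state, and RXR in NCs had none.

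The strongest peaks of the Aldh1a2 window lay in an intron, from 25225 to 25254 bp past the start, over an alternating tract of 146 bp. They were found in every library except FGFR1 replicate 2. In ESCs, FGFR1 had a -log10 p of 36.2, RXR of 29.9 and Nur77 of 18.7. In NCs, FGFR1 replicate 1 had 27.0, RXR 44.4, Nur77 55.5 and H3.3 32.1. Antibodies against 4 proteins thus gave summits within the same 29 bp, and those against FGFR1, RXR and Nur77 did so in both states. Elsewhere in the gene, Nur77 in ESCs had peaks with 8.74 and 11.8, the latter over a tract of 25 bp, and FGFR1 replicate 1 had one with 6.81 near the start of the noncoding gene Gm48124. The site is shown from chr9:71240948-71241133, plus strand, with the tract in capitals, because it holds the strongest peaks near a gene of RA synthesis and is built almost wholly of one simple repeat.
Aldh1a2 intron tract: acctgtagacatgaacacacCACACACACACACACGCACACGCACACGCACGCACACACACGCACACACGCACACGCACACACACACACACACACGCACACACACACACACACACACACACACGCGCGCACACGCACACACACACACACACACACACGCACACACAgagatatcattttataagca

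Aldh1a3, the synthetic enzyme of the eye and nasal region, lies at chr7:66390890-66427517 on the minus strand. It was the only member with an RXR promoter peak in both states. RXR in ESCs had its summit at 190 bp with a -log10 p of 9.95 and 12 fragments, and RXR in NCs at 19 bp with 7.27 and 7 fragments. These peaks did not overlap each other. FGFR1 replicate 1 in NCs had a peak at -114 bp with 11.3 and one 78 bp past an internal start with 12.7, and replicate 2 had no peak in the window. The peak just upstream of the gene is shown on the minus strand, the strand of the gene, with CpG in capitals.
Aldh1a3 FGFR1 peak at chr7:66427593-66427672: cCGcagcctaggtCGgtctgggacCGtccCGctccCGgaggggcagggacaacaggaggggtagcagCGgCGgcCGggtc

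The 3 peaks at the first start of Aldh1a3 lay side by side without sharing a base, and each came from a different library. Each rested on 7 to 12 fragments. FGFR1 in ESCs had 1 peak in an intron with a -log10 p of 11.6, over a tract of 35 bp. FGFR1 replicate 1 had another intronic peak with 7.96. Past the gene end, RXR in ESCs and FGFR1 replicate 1 had weak peaks of 6.83 and 6.80 near the start of Lrrk1.

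Aldh1a1, the enzyme of the dorsal retina and several adult tissues, lies at chr19:20492715-20643465 on the plus strand and had the largest window, 175.751 kb. It held 1 peak, that of FGFR1 in ESCs, in an intron over a tract of 33 bp, with a -log10 p of 16.6. The 7 other libraries had no peak there. The Aldh1a1 promoter had 0.185 of the CpG that its composition gives, higher than in 21.6% of all promoters.

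Of the binding proteins, Crabp1 lies at chr9:54764748-54773110 on the plus strand and had peaks nowhere but at its promoter. FGFR1 replicate 1 in NCs had a fold of 7.44, a -log10 p of 11.7 and 12 fragments. Replicate 2 had a fold of 9.45, a -log10 p of 21.01 and 25 fragments. RXR in ESCs had a fold of 7.04 and a -log10 p of 12.2, and Nur77 in ESCs a fold of 5.89 and a -log10 p of 8.63. The 4 summits fell within 37 bp of each other, from 107 to 144 bp past the start, in the untranslated part of the first exon. FGFR1 in ESCs and RXR, Nur77 and H3.3 in NCs had no peak in the window, with the nearest summits 15918 to 15952 bp away.

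The strength of the Crabp1 peaks was ordinary for each library. Crabp1 ranked 7041 of 11133 bound genes in FGFR1 replicate 1 and 6660 of 10887 in replicate 2, below the median of bound genes in both. At the depth of the FGFR1 library from ESCs these peaks would have had a -log10 p of 8.57 and 9.58. The Nur77 peak from ESCs would have had 7.42 at the depth of Nur77 in NCs, also past the limit. The 150 bases before the start, chr9:54764598-54764747 on the plus strand, are shown with CpG in capitals, because Crabp1 shared the pattern of Cyp26a1 without sharing its repeat.
Crabp1 upstream: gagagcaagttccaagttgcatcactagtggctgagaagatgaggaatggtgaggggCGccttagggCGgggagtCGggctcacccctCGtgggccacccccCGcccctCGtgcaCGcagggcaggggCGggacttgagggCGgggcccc

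Crabp2, which delivers RA to its nuclear receptors, lies at chr3:87948666-87953376 on the plus strand. It had no peak of its own, and all 6 peaks of its window lay at -18683 to -18136 bp, within 1000 bp of the starts of the neighbouring genes Isg20l2 and Rrnad1. The peaks there came from FGFR1 replicates 1 and 2 in NCs with -log10 p values of 22.9 and 27.9, Nur77 in NCs with 14.5, RXR in ESCs and NCs with 7.93 and 9.05, and H3.3 with 8.24. The counts of Crabp2 as a member with a window peak therefore rest on a promoter of other genes.

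Stra6, which takes up retinol from its carrier protein, spans chr9:58063788-58153996 on the plus strand in the annotation, where it has 12 starts. RefSeq gives the gene only starts that lie 49778 to 55355 bp past the start of the longest coding transcript used here. None of the 12 starts had a peak within 1000 bp, and the nearest summit was at -1564 bp, for FGFR1 replicate 1 in NCs with a -log10 p of 10.0. From the first RefSeq start, which is also among the 12, that summit was at -51342 bp, so its place next to Stra6 rests on the longer annotation. The 10 peaks of the window came from 5 libraries, and 3 of them lay over tracts. Past the gene end, 4 peaks lay within 1000 bp of the start of Islr, with 16.2 and 16.2 for FGFR1 replicate 1, 9.69 for Nur77 and 8.53 for RXR, all in NCs. FGFR1 replicate 2, RXR in ESCs and H3.3 had no peak in the Stra6 window.

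Counted over whole windows, members were spread more evenly over the libraries. In ESCs, FGFR1 had a peak in 5 of 9 windows against 37.4% of all genes, RXR in 6 against 64.9% and Nur77 in 5 against 53.5%. In NCs, FGFR1 replicate 1 had one in 8 windows against 73.8% and replicate 2 in 4 against 60.1%, a mean of 6 ± 2.83 (SD, n = 2). RXR in NCs had one in 6 windows against 44.7%, Nur77 in 6 against 56.2% and H3.3 in 5 against 35.0%. The windows counted as bound by FGFR1 in ESCs were those of Cyp26c1, Aldh1a1, Aldh1a2, Aldh1a3 and Stra6, and each rested on 1 peak over an alternating tract. Without tract peaks, FGFR1 in ESCs had 0 windows with a peak. The matching share over all genes without tract peaks was not counted, and 51.8% of that whole list held a tract.

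The 70 peaks merged into 40 sites, of which 30 were found in 1 library and 10 in more than 1. Both FGFR1 replicates were present at 4 sites: the Cyp26a1 and Crabp1 promoters, the later exon of Cyp26c1 and the promoter next to Crabp2. Tracts lay under 23 of the 70 peaks, which is 32.9% against 30.6% of all 176647 peaks in the 8 lists. None of the 19 peaks at member promoters held a tract. The matching share over the promoter peaks of all genes was not counted.

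The wider pathway was described by 27 other genes of retinoid handling: dehydrogenases and reductases that interconvert retinol and retinaldehyde, retinol and fatty-acid binding proteins, and enzymes that esterify, cleave or isomerise retinoids. FGFR1 in ESCs had a promoter peak at 1 of the 27, Rdh14, a retinol dehydrogenase, 3.70% against 17.0% of all genes. In NCs, replicate 1 had 13, 48.1% against 50.7% of all genes, and replicate 2 had 9, 33.3% against 49.6%. All 9 of the latter were also found in replicate 1, 33.3% of the list against 39.5% of all genes. They were Rdh5, Rdh10, Rdh13, Rdh14, Dhrs3, Dhrs4, Adh5, Retsat and Fabp5.

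Rdh10, which makes the retinaldehyde that Aldh1a2 uses, had -log10 p values of 12.6 and 14.2 in the FGFR1 replicates. Dhrs3, which turns retinaldehyde back to retinol, had 10.1 and 17.1, with no peak of any other factor at its promoter. Fabp5, a lipid carrier that can also bind RA, had 14.6 and 16.8. The strongest of the list in replicate 2 was Retsat, which saturates retinol, with 17.0 and 76.9. RXR had promoter peaks at 7 of the 27 in ESCs, 25.9% against 42.5% of all genes, and at 5 in NCs, 18.5% against 23.3%, with the same gap in depth between its libraries. Nur77 had them at 4 in ESCs, 14.8% against 25.5%, and at 5 in NCs, 18.5% against 25.8%. H3.3 had them at 4, 14.8% against 15.5%. Rdh13 and Fabp5 shared with Cyp26a1 and Crabp1 the presence of both FGFR1 replicates in NCs and RXR in ESCs without FGFR1 in ESCs or RXR in NCs, 2 of 27 against 10.0% of all genes.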

How the data were processed

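Peak lists from ChIP-seq of E14Tg2a cells were analysed. Per the labels and the study's methods, the authors aligned reads to mm10 with Bowtie 1.0, keeping reads with a single genomic place, and ran MACS2 on each library by itself, with a p limit of 1e-05, no named control and no pooling. The deposited fold values are ratios of summit pileup to local background. The −log10 of p and of q, also deposited, describe the summit. Intervals count from 1 here.

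Summit fragments and background were solved from fold and −log10 p under the Poisson tail, and matched the deposited −log10 p within 0.002 for 100% of peaks. Background divided by the smallest peak width, taken as fragment length, gave depth, which is thus inferred. Scaling to another depth multiplied both terms by the ratio of depths. Windows took peaks sharing 1 bp and promoters, over all GENCODE M21 transcripts, those sharing 20 bp. Sequences came from the matching GRCm38 assembly. Fitting and overlaps were tested on simulated data. Python 3.11.15, pandas 2.3.3, scipy 1.17.1 and pysam 0.24.0 were used. No p-value was computed.

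The members and gene lists were chosen with earlier results of these data known. Named genes were the 9 members, other retinoid genes with promoter peaks in both FGFR1 libraries from NCs, and neighbours whose start lay within 1000 bp of a peak. Alternatives covered peak strength, list length, depth, window and promoter size, transcripts, summits, tracts and replicates.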

Additional observations from a re-analysis of the deposited data

Results flagged for a closer look

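At 2 promoters FGFR1 had a peak in both libraries from NCs and none in ESCs, and a receptor had a peak only in ESCs. For FGFR1 with RXR, 10.0% of all protein-coding genes had this pattern, with FGFR1 peaks in both libraries from NCs. The share of all genes for FGFR1 with Nur77 was not counted. At Cyp26a1, FGFR1 had no peak in ESCs and peaks with a -log10 p of 37.8 and 66.8 in the 2 libraries from NCs, while RXR had 10.6 in ESCs and no peak in NCs. At Crabp1, FGFR1 had no peak in ESCs and 11.7 and 21.01 in NCs, while RXR had 12.2 and Nur77 8.63 in ESCs and neither had a peak in NCs. The difference between the factors was not tested, since each receptor had 1 library in each state. The RXR values of both promoters fell under the peak limit at the depth of RXR in NCs, to 3.77 and 4.57. A loss of RXR there cannot be told apart from the lower depth. The Nur77 value stayed past the limit at the depth of Nur77 in NCs, at 7.42, but was 4.08 at the depth of H3.3.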

How the results depend on the processing

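Of 248 recomputed counts, 204 stayed within 1.5 times the main count and 44 did not, 42 of them lower. A limit of 2 on −log10 q, one of 5 on fold, promoters of 500 bp, protein-coding transcripts and summits inside moved none. With a −log10 p of at least 10, window peaks fell to 6 for RXR LIF, 2 for RXR RA, 5 for Nur77 RA and 5 for H3.3, members with a window peak to 2 for RXR RA, and members with a promoter peak to 0 for RXR RA, 0 for Nur77 LIF and 1 for H3.3. With at most 11378 peaks per list, window peaks were 7 for FGFR1 RA replicate 1, 5 for RXR LIF, 3 for RXR RA and 3 for Nur77 RA, and members with a window peak were 5 for FGFR1 RA replicate 1, 3 for RXR RA and 3 for Nur77 RA. Promoter members were then 1 for FGFR1 RA replicate 1, 3 for RXR LIF, 0 for RXR RA and 0 for Nur77 LIF, and 1 in both FGFR1 RA libraries, with or without the condition on LIF. At the lowest depth, window peaks were 11 for FGFR1 RA replicate 1, 2 for RXR LIF, 3 for Nur77 LIF and 3 for Nur77 RA, members with a window peak 2 for RXR LIF, 2 for Nur77 LIF and 3 for Nur77 RA, and promoter members 0 for RXR LIF and 0 for Nur77 LIF. With windows of 10 kb upstream to the gene end, window peaks were 3 for RXR RA, 5 for Nur77 RA and 5 for H3.3. Without tract peaks they were 0 for FGFR1 LIF, 2 for Nur77 LIF, 5 for Nur77 RA and 5 for H3.3, and members with a window peak 0 for FGFR1 LIF and 2 for Nur77 LIF. Depth matched within each factor, a setting chosen after seeing the data, left RXR LIF with 2 window peaks, 2 members with a window peak and 0 with a promoter peak. Leaving out 1 FGFR1 RA library at a time gave 2 to 4 members in place of 2, in both counts. The Cyp26a1 promoter peaks of both FGFR1 RA libraries were kept in every setting. The settings that set a higher limit or lower depth pass fewer peaks by construction, and causes beyond that were not tested. No paired analysis was possible because no test was run and the groups shared only the replicate number 1.

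Depth limits what a missing peak says. At the depth of RXR RA, 1.87 fragments per kb, 0 of 5 members kept the RXR LIF promoter peak, and H3.3 was shallower still at 1.27. The study states default settings of MACS2 and names no separate step for copies from amplification. Their share among the summit fragments was not tested, so the precision of single peaks is not known.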

Other observations

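Peak density over the merged windows of the members, 609.568 kb, was compared with that over the windows of all protein-coding genes. H3.3 stood out with 13.1 peaks per Mb against 5.84, a ratio of 2.25 that rested on 8 peaks, 3 of them over tracts. In the other 7 libraries the ratio ran from 0.826 for FGFR1 replicate 2 in NCs to 1.33 for FGFR1 in ESCs. All 5 FGFR1 peaks from ESCs in member windows held a tract, as did 51.8% of that whole list.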
